A study of Homo sapiens with 24 samples.

Results

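The transcript levels of 97 genes that encode secreted morphogens, growth factors, axon guidance cues and their receptors were described in 3 neuroblastoma cell lines. The genes were those whose symbols began with the letters of these families (WNT, FZD, DKK, SFRP, BMP, TGFB, GDF, INHB, SMAD, FGF, IGF, PDGF, NRG, NOTCH, DLL, JAG, SEMA, PLXN, EPH, EFN, SLIT, NTN, UNC5 and NRP among them) among 3504 genes used here that the study had listed as higher or lower with FOXP1 in at least 1 line. Each symbol was represented by 1 probe, the brightest over all 24 arrays, and counts as a gene here, although PLXNA4A and PLXNA4B are 1 gene, PLXNA4, in RefSeq and are counted separately. The study listed 21 of the 97 genes for SK-N-BE(2), 67 for IMR-32 and 48 for CHP-212, with 29 genes on the lists of 2 lines and 5 on those of all 3. These counts refer to the entries of the listing used here; 373 entries for IMR-32 and 213 for SK-N-BE(2) were not used here, and not listed means not among the entries used. The members were thus chosen by the measured difference between FOXP1 and GFP cultures, and that difference is only described for a gene in a line whose own list brought it in. A difference was tested where the gene was also listed for another line, since such a gene was among the 97 whatever it did in the line under test. The letters of the rule also brought in 9 genes that share a name but not a family, among them EPHX2, which encodes a soluble epoxide hydrolase.

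WNT, TGF-beta, BMP, FGF and Notch ligands are signals that cells secrete or display, and each acts through its own receptors on the cells that receive it. Secreted inhibitors, such as the Dickkopf (DKK) and SFRP proteins in the WNT pathway, and binding proteins, such as the IGFBPs for insulin-like growth factors, limit how much ligand reaches a receptor. Semaphorins, ephrins, netrins and SLITs steer growing axons and migrating cells, and the neural crest, from which neuroblastoma arises, uses all of these families.

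The established neuroblastoma lines were SK-N-BE(2), IMR-32 and CHP-212. From each line a culture carrying a FOXP1 transgene and a culture carrying a GFP transgene were profiled, giving 6 cultures and 24 single-colour arrays. The time points were 0, 12, 24 and 72 h after induction of the transgene, for which the study used doxycycline in FOXP1 and GFP cultures alike. FOXP1 encodes a forkhead transcription factor, and GFP, a fluorescent protein, was the control. Both transgenes were delivered by retrovirus and placed under a reverse tetracycline-controlled transactivator, so the controls carried the same doxycycline-inducible system. The cells were polyclonal, and leakage of the inducible vector was described in the study, so 0 h is not a level free of transgene. The 4 arrays of a group were time points of a single culture, and the p-values measure the spread between those arrays only, not between independent cultures.

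The probe for FOXP1 itself was read first as a check of the labels. Its FOXP1 minus GFP difference was 1.40 on the log2 scale in IMR-32 and 1.98 in CHP-212, but -0.20 in SK-N-BE(2), where the groups overlapped. The SK-N-BE(2) arrays are therefore called the arrays labelled FOXP1, and every direction in that line follows the labels. The share of probes well above background was 72.8% to 82.3% per array in IMR-32 and 73.6% to 80.4% in SK-N-BE(2). In CHP-212 it was 78.0% to 81.5% on the slide with the 24 and 72 h arrays and 53.9% to 60.4% on the slide with the 0 and 12 h arrays, so weak genes in that line were often read at 24 and 72 h alone. Of the 14 neuroblastoma markers chosen, 5 had a named probe here, and TH, DBH and CHGB were higher in the IMR-32 FOXP1 culture by 2.82 to 3.85 while DBH was higher in the CHP-212 FOXP1 culture by 2.07. Of 14 markers of mesenchymal-type cells, 2 had a named probe, of which PRRX1 was on no array well above background and DCN was lower in the CHP-212 FOXP1 culture by 1.46. The part of these shifts in the results below was not tested.

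Levels are given as log2 signal minus the array's own 75th percentile, so 0 is a probe at the 75th percentile. Of the 97 genes, 23 were well above background on all 24 arrays, 73 on some of them and 1, WNT8A, on none. Testing in a line required a signal well above background on 4 or more of its 8 arrays, which 71 genes met in SK-N-BE(2), 68 in IMR-32 and 63 in CHP-212. A gene counted as called if its limma p-value, adjusted by Benjamini-Hochberg over every probe tested in that line, was below 0.05 and the difference at least 2-fold. A gene read on all 4 arrays of 1 bright culture passes the signal filter whatever the other culture reads, and the counts below are over genes that passed. A gene read on at most 1 array of its dimmer culture had to differ, so no p-value of the difference between its cultures is given.

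In IMR-32 the called genes were divided almost evenly between higher and lower with FOXP1. Of the 68 genes tested there 55 were called, 28 higher and 27 lower with FOXP1, beside 12.2% of all 33806 probes tested (6.34% higher and 5.86% lower). Since 67 of the 97 genes were listed from this contrast, that count is a description. In bulk RNA, fewer cells of a type and less RNA per cell cannot be told apart. Among the genes listed for another line, 32 were tested in IMR-32 and 20 were called, 8 higher and 12 lower, which is 62.5%. Of these 20, WNT4, IGFBP7, SEMA3A, FGFR2 and EPHX2 were read in 1 culture alone and DKK1, EPHA5 and FGFBP2 on 1 array of the dimmer culture, so 8 of the calls depend on the bright culture. Among the 21 genes read on all 8 arrays, 10 were called, beside 9.88% of all probes read on all 8. The other named genes that the study listed for another line were called in IMR-32 in 36% of cases (418 of 1160). After normexp background correction, which compresses dim signals, the call remained for 17 of the 68 genes (14 higher and 3 lower) and for 6 of the 32 (5 higher and 1 lower), beside 4.3% of all probes (2.74% higher and 1.56% lower), while the median difference over all probes moved to 0.22. Those 6 were NTNG1, TGFBR3, EPHA7, NRP2, PDGFRA and SLIT2, so the other 14 of the 20 calls were lost under that setting. Among the lost calls the differences moved to -0.14 for FGFR3, -0.30 for PLXND1, -0.82 for EPHA8, -1.31 for TGFB3, -1.46 for EPHB3, -1.58 for JAG1 and -2.57 for DKK1.

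In CHP-212 most of the called genes were higher with FOXP1. Of 63 genes tested 24 were called, 19 higher and 5 lower, beside 3.02% of 32958 probes (1.93% higher and 1.08% lower). Among those listed for another line 13 of 48 (27.1%) were called, 11 higher and 2 lower. For the other named genes listed for another line the share was 10.7% (173 of 1624). On the slide of 24 and 72 h alone, with 2 arrays against 2, the counts were 11 of 63 and 7 of 48, beside 1.55% of all probes, and without the GFP array of 72 h the second count was 8. With normexp the calls of FGF5, EPHB3 and BMP7 in this line were lost, those of NRP2, SLIT2 and NRG1 fell just under the 2-fold mark at an adjusted p that still passed, and the median difference over all probes moved to 0.14.

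In SK-N-BE(2) 4 of 71 genes were called, IGFBP7, FGFR2, TGFB3 and INHBA, all higher on the arrays labelled FOXP1, beside 0.711% of 34044 probes (0.426% higher and 0.285% lower). All 4 were listed for another line, making 4 of 69 such genes (5.8%), and the other named genes listed for another line gave 2.91% (63 of 2163). With quantile normalization 4 were higher and 1 lower, and with normexp 5 were higher and 2 lower, the 4 above with BMP7, FGF13 and SLIT2. Paired by time point as a replicate block, 13 were called, 10 higher and 3 lower, of which 12 were listed for another line, beside 1.4% of all probes in that fit. The 3 lower were SLIT2, PLXNA4B and FGF13, the tested genes at least 2-fold lower on the arrays labelled FOXP1. When the 0 h arrays were left out, none of the 71 genes was called by limma. With all arrays 27 of the 71 had an unadjusted p below 0.05, beside 7.67% of all probes.

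**Figure D1:**
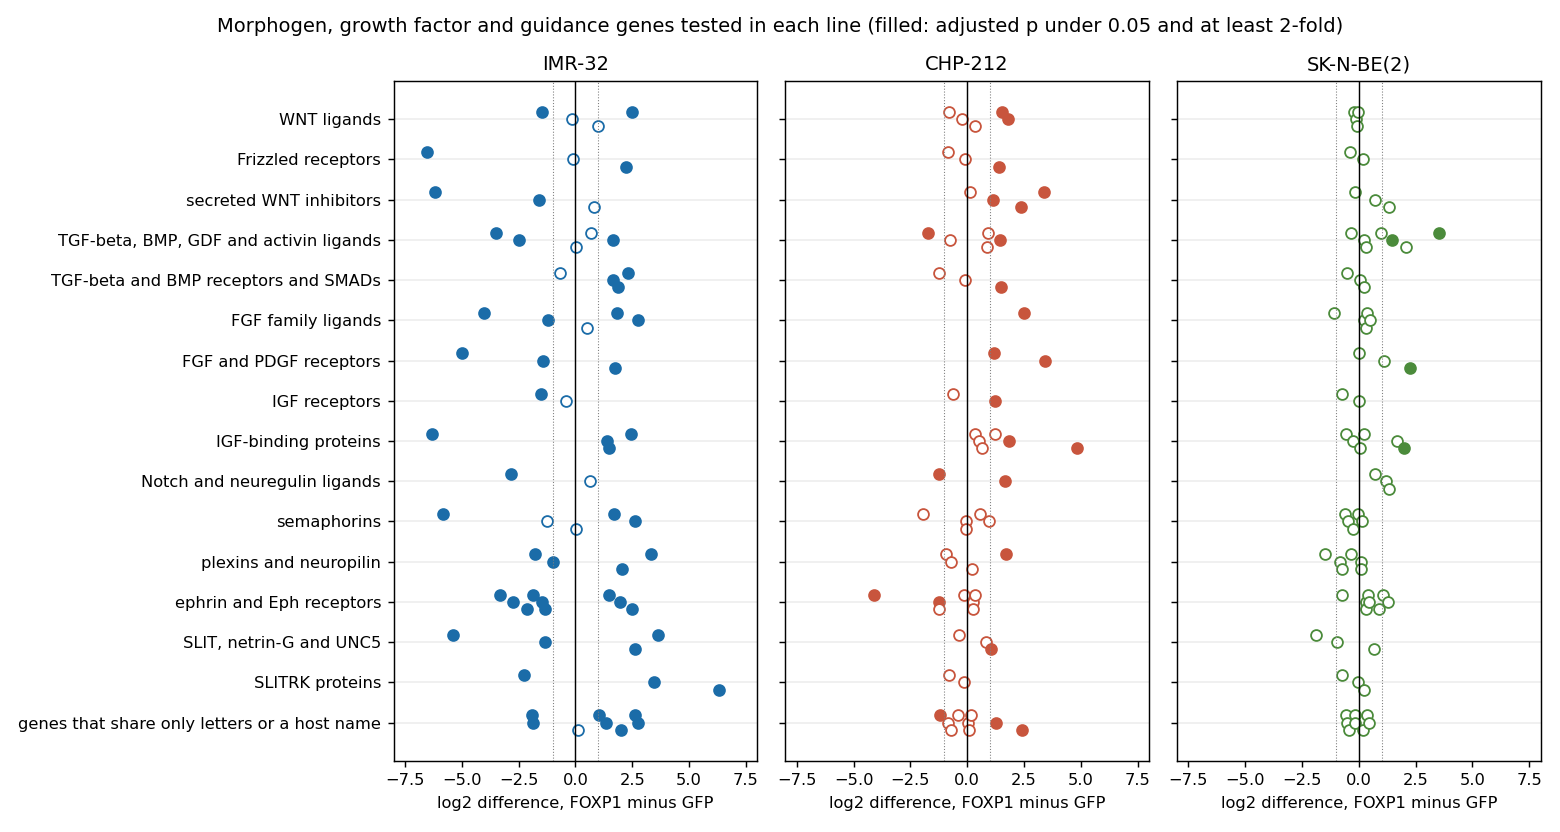
Each point is 1 gene tested in the line named above the panel; the x axis is the FOXP1 minus GFP difference in log2 units, rows are the genes' roles, filled points were called and dotted lines mark 2-fold. IMR-32 has 55 filled points on both sides of 0, CHP-212 has 24, of which 19 lie to the right, and SK-N-BE(2) has 4, all to the right; for 12 of the IMR-32 points 1 culture was not well above background, and there the distance from 0 is a measured value that depends on the array's background.

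The FOXP1 and GFP arrays did not overlap for 54 of 68 genes tested in IMR-32, beside 26.2% of all probes tested there. In CHP-212 this held for 34 of 63 genes, beside 14%, and in SK-N-BE(2) for 20 of 71, beside 5.93%. Every one of the 4 called genes in SK-N-BE(2), the 55 in IMR-32 and the 24 in CHP-212 had the same sign in all 4 FOXP1 and GFP pairs of a time point, and within each slide, as did 99.8% to 100% of all called probes over the 4 pairs. At 0 h itself 51 of the 55, 22 of the 24 and 4 of the 4 differed at least 2-fold in the direction called, beside 88.6%, 86% and 92.6% of all probes called in the same lines. The calls include the 0 h arrays, so these counts are a description. Near the 2-fold mark, PLXNB2, lower at that mark, and TGFB1I1 (1.04) were the smallest differences among tested genes listed for IMR-32, while DKK3 (0.82) and BMP7 (0.70) lay below it among genes not listed for it.

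**Figure D2:**
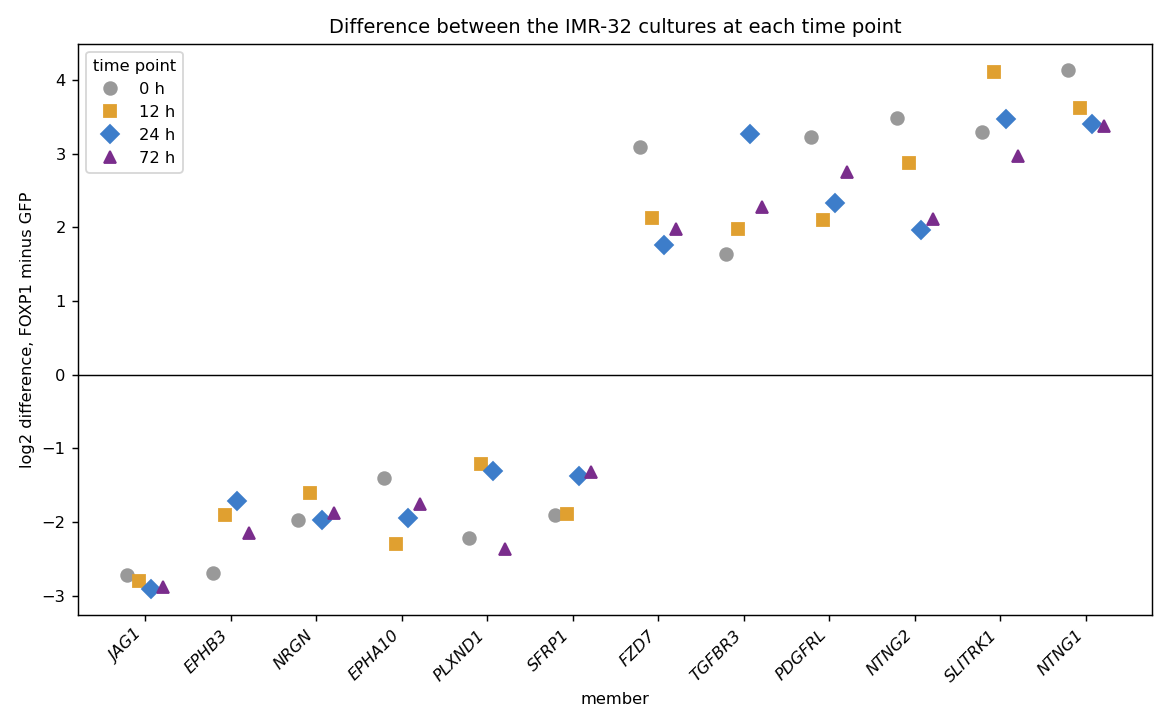
FOXP1 minus GFP difference in log2 units (y axis) at each of the 4 time points in IMR-32, for the 6 lowest and 6 highest of the called genes that were well above background on all 8 arrays; 1 point is 1 pair of arrays. All 4 points of each gene lie on 1 side of 0, with NTNG1 at 3.63 and JAG1 at -2.83 as the means at either end.

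The WNT inhibitor DKK1, which binds the LRP5 and LRP6 co-receptors, went opposite ways in IMR-32 and CHP-212. In IMR-32 its level was -1.11, -0.89, -1.21 and -1.71 on the GFP arrays of 0, 12, 24 and 72 h and -6.52, -7.26, -8.26 and -7.54 on the FOXP1 arrays, of which only the 0 h array was well above background, so the size of the difference depends on the background. In CHP-212 it was 0.36, -0.16, -1.26 and -0.82 with GFP and 3.01, 2.76, 2.71 and 3.26 with FOXP1. The groups did not overlap in either line, with the FOXP1 culture the lower in IMR-32 and the higher in CHP-212. The measured difference was -6.17 in IMR-32 and 3.40 ± 0.33 (SE, n = 4 arrays per group, limma adjusted p = 0.00084) in CHP-212. In SK-N-BE(2) DKK1 was high on every array (2.02 to 3.45), with a difference of 0.69 ± 0.24 that was not called.

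Among the other secreted WNT inhibitors, DKK2 was read above background in CHP-212 on all 8 arrays, at -2.25, -2.95, -3.20 and -3.47 with GFP and -0.19, -0.31, -1.06 and -0.79 with FOXP1. DKK3, a more distant member of the family, was higher on the array labelled FOXP1 in every pair of arrays of each line. Its differences were 1.34 in SK-N-BE(2), 0.82 in IMR-32 and 1.14 in CHP-212, of which the CHP-212 value, in the line that listed the gene, was the one called. SFRP1, which binds WNT ligands, was lower in the IMR-32 FOXP1 culture by 1.62 and differed by -0.15 in SK-N-BE(2) and 0.14 in CHP-212. DKK4, SFRP4 and SFRP5 were too dim to be tested in any line.

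FZD1, a Frizzled receptor for WNT ligands, was at -2.54, -2.41, -2.06 and -2.20 on the IMR-32 GFP arrays and not well above background on any IMR-32 FOXP1 array, which puts it at least 20.8-fold higher with GFP. FZD7 lay the other way in IMR-32, with a difference of 2.24, and FZD8 was higher with FOXP1 in CHP-212 by 1.39. These 3 receptors were listed for the line concerned only, so the values are descriptive.

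WNT5A, a ligand of mostly beta-catenin-independent signalling, was a CHP-212 transcript in these data. It lay at -0.53, 0.25, -0.47 and -0.77 on the CHP-212 GFP arrays and at 2.13, 1.37, 1.25 and 0.88 on the FOXP1 arrays, groups that did not overlap. The difference of 1.79 ± 0.31 (limma adjusted p = 0.014) was called; without the 0 h arrays or the GFP array of 72 h it was not. In SK-N-BE(2) WNT5A was on no array well above background, and in IMR-32 it was so on 3 GFP arrays alone. WNT4 was read in the IMR-32 FOXP1 culture at -6.13, -5.66, -5.86 and -4.53 and on no IMR-32 GFP array, at least 2.03-fold higher with FOXP1. WNT3 was lower in the IMR-32 FOXP1 culture by 1.49 and WNT11 higher in the CHP-212 FOXP1 culture by 1.53, both in the line that listed them.

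For 70 of the genes RefSeq (GRCh38.p14) gave the bases before the transcription start, and those of the genes that moved in 1 direction or in opposite directions across lines are shown for DKK1, JAG1, TGFB3 and PDGFRA. Each is the 250 bases up to the start on the gene's strand: chr10:52314031-52314280 (plus) for DKK1, chr20:10674000-10674249 (minus) for JAG1, chr14:75983012-75983261 (minus) for TGFB3 and chr4:54229043-54229292 (plus) for PDGFRA. All 4 genes are protein-coding, and these bases lie outside the annotated gene. Capitals mark exact matches on either strand to TGTTTAC or TATTTAT (letters bound by forkhead factors), TATAAA (the TATA box) or CACGTG (the E-box).
DKK1: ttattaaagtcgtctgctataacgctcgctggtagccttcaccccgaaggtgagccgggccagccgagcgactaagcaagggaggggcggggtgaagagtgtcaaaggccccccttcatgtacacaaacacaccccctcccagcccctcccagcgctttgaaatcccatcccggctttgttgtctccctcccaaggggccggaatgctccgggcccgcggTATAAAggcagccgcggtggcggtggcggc
JAG1: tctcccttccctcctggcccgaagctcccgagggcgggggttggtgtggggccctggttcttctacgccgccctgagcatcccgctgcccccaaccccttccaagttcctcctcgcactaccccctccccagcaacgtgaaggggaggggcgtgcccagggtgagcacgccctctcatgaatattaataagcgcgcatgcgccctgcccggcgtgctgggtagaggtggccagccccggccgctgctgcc
TGFB3: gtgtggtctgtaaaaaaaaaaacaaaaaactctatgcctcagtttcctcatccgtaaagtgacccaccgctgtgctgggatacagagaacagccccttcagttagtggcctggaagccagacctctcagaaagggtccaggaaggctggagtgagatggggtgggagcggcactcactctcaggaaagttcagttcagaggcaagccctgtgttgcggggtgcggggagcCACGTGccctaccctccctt
PDGFRA: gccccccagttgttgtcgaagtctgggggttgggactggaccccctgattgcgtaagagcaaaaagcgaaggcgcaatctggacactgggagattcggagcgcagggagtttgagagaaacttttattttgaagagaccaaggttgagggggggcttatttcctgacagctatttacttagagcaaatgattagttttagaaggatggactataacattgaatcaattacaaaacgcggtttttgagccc
DKK1 holds a TATAAA that begins 30 bases before the start and TGFB3 a CACGTG that begins 20 bases before it, while JAG1 and PDGFRA hold none of the 4. TGTTTAC was found before 1 of the 70 genes, IGFBP6 (1.43%), against 2.98% of 35116 promoters of this length, and TATTTAT before 3, FZD8, SFRP4 and WNT8A (4.29%), against 4.6%. TATAAA was found before 5 (7.14% against 10.7%) and CACGTG before 7 (10% against 6.34%). The median GC content was 64.8% for these genes and 58% for all promoters. These are descriptions of letters in a short window, and no binding was measured.

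Of the TGF-beta family, TGFB3 was lower with FOXP1 in IMR-32 and higher on the arrays labelled FOXP1 in SK-N-BE(2). The IMR-32 levels were -2.53, -2.50, -2.36 and -2.55 with GFP and -5.55, -5.89, -6.28 and -6.21 with FOXP1, of which the 24 h array was not well above background. In SK-N-BE(2) they were -2.93, -3.10, -3.35 and -3.21 with GFP and -1.63, -1.83, -1.67 and -1.67 on the arrays labelled FOXP1. Neither pair of groups overlapped, and the spread within each group was under 1 log2 unit. The differences were -3.50 ± 0.19 (limma adjusted p = 7.4e-07), which fell to -1.31 without a call after normexp (adjusted p = 0.38), and 1.45 ± 0.15 (adjusted p = 0.0032). CHP-212 had a difference of 0.88 with groups that did not overlap, under the 2-fold mark. TGFB2 was bright in CHP-212 alone, at 0.56, 0.61, 0.73 and 0.01 with GFP and 2.41, 2.13, 1.63 and 1.56 with FOXP1, a difference of 1.46 ± 0.25 (adjusted p = 0.013) that was not called without the 0 h arrays. TGFB1 differed by 1.65 in IMR-32, the line that listed it, and by 0.92 in CHP-212, where the groups did not overlap.

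INHBA, the subunit that forms activin A, had the largest of the called differences in SK-N-BE(2). It lay at -5.85, -5.53, -5.40 and -8.19 on the GFP arrays, the last of them not well above background, and at -2.90, -2.70, -2.21 and -3.07 on the arrays labelled FOXP1. The groups did not overlap, and the 72 h GFP array stood far below the other GFP arrays. The difference was 3.52 ± 0.58 (limma adjusted p = 0.034), and the call was lost when any of 7 of the 8 arrays was left out. BMP7, a bone morphogenetic protein, was lower with FOXP1 in CHP-212 by 1.70, the line that listed it, a call lost when any of 7 of the 8 arrays was left out and under quantile normalization. In SK-N-BE(2) it was at -0.05, 2.00, 1.93 and 1.03 with GFP and 2.99, 3.40, 3.58 and 3.20 on the arrays labelled FOXP1, and this difference of 2.07 ± 0.43 did not pass (adjusted p = 0.09) although the groups did not overlap; it was called with normexp. BMP2 was lower in the IMR-32 FOXP1 culture, where 1 of 4 arrays read it, by a measured 2.49 that depends on the background.

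Of the receptors and signal carriers of the pathway, TGFBR3, the co-receptor betaglycan, was at -4.01, -4.50, -4.77 and -4.59 with GFP and at -2.37, -2.51, -1.51 and -2.32 with FOXP1 in IMR-32, without overlap, a difference of 2.29 ± 0.25 (limma adjusted p = 0.00013). SMAD1, which carries BMP signals, differed there by 1.87 and the type I receptor BMPR1B by 1.65, both listed for IMR-32 alone. The inhibitory SMAD7 was higher with FOXP1 in CHP-212 by 1.49, the line that listed it, and differed by -0.69 ± 0.24 in IMR-32 (adjusted p = 0.065).

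The receptor FGFR2 had the same pair of directions as TGFB3. On the IMR-32 GFP arrays it was at -2.98, -2.91, -3.26 and -3.28, and it was not well above background on any IMR-32 FOXP1 array, at least 11.9-fold higher with GFP. In SK-N-BE(2) it was at -4.69, -4.24, -3.81 and -4.10 with GFP and -2.07, -1.88, -1.59 and -2.23 on the arrays labelled FOXP1, a difference of 2.27 ± 0.23 (limma adjusted p = 0.0028), a call lost in the fit of all 24 arrays (adjusted p = 0.28). In CHP-212 no array read it. FGFR3 was at -4.35, -4.37, -3.60 and -2.99 with GFP and -5.17, -5.49, -5.60 and -4.84 with FOXP1 in IMR-32, and at -0.08, -0.36, -0.41 and -0.09 against 1.36, 0.72, 0.89 and 0.82 in CHP-212. It was lower with FOXP1 in IMR-32 (-1.45 ± 0.32, adjusted p = 0.0089) and higher in CHP-212 (1.18 ± 0.19, adjusted p = 0.0087), with no overlap in either line, though the IMR-32 value shrank to -0.14 after normexp.

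PDGFRA, the alpha receptor for platelet-derived growth factor, was higher with FOXP1 in IMR-32 and CHP-212. In IMR-32, for which it was not listed, the levels were -1.01, -0.44, 0.08 and 0.10 with GFP and 1.30, 1.02, 1.70 and 1.62 with FOXP1. The groups did not overlap, and the difference of 1.73 ± 0.27 (limma adjusted p = 0.0013) was called. In CHP-212, the line that listed it, the levels were -3.67, -3.51, -3.58 and -3.76 with GFP and -0.81, -0.22, -0.15 and 0.40 with FOXP1, a difference of 3.44. In SK-N-BE(2) the arrays labelled FOXP1 were higher by 1.11 ± 0.21 (adjusted p = 0.06), without overlap but not called.

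Of the 8 FGF family ligands, FGF5 was higher with FOXP1 in CHP-212, from -5.23, -5.91, -5.00 and -5.30 with GFP, where the 0 and 12 h arrays were not well above background, to -2.21, -3.16, -2.91 and -3.11 with FOXP1. The difference was 2.51 ± 0.27 (limma adjusted p = 0.0013), and its size at 0 and 12 h depends on the background. On the slide of 24 and 72 h, where every CHP-212 array read FGF5, it was 2.14. After normexp the difference over all times was 0.97 without a call (limma adjusted p = 0.053). FGF10 was read on the IMR-32 GFP arrays at -2.78, -3.14, -2.84 and -2.84 and was lower with FOXP1, where 2 of 4 arrays read it, by a measured 4.03 that depends on the background. FGF1 went the other way in IMR-32, at least 2.23-fold higher with FOXP1 and not well above background on any GFP array. FGF13, which is not secreted and binds voltage-gated sodium channels, was bright in SK-N-BE(2) alone. There it was 1.08 lower on the arrays labelled FOXP1 without being called (adjusted p = 0.069). It was called there with normexp and when the arrays were paired by time point.

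IGFBP7, a secreted protein of low affinity for insulin-like growth factors, was the gene called in all 3 lines. It was at -3.18, -2.67, -2.51 and -1.89 on the IMR-32 GFP arrays and not well above background on any IMR-32 FOXP1 array. In CHP-212 it was at -5.51, -5.32, -4.99 and -5.13 with GFP, the first 2 of these not well above background, and -0.17, -0.37, -0.51 and -0.51 with FOXP1. In SK-N-BE(2) it was at -1.84, -1.34, -1.33 and -1.86 with GFP and 0.57, 0.49, 0.50 and 0.09 on the arrays labelled FOXP1. The FOXP1 group was below the GFP group in IMR-32 and above it in both other lines, with no overlap. IGFBP7 was at least 17.4-fold higher with GFP in IMR-32, and higher with FOXP1 by 4.85 ± 0.17 in CHP-212 (limma adjusted p = 4.4e-06). In SK-N-BE(2) the arrays labelled FOXP1 were higher by 2.01 ± 0.20 (adjusted p = 0.0027). It was not among the SK-N-BE(2) entries used here. The gene lies at chr4:57030773-57110385 in GRCh38.p14.

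**Figure D3:**
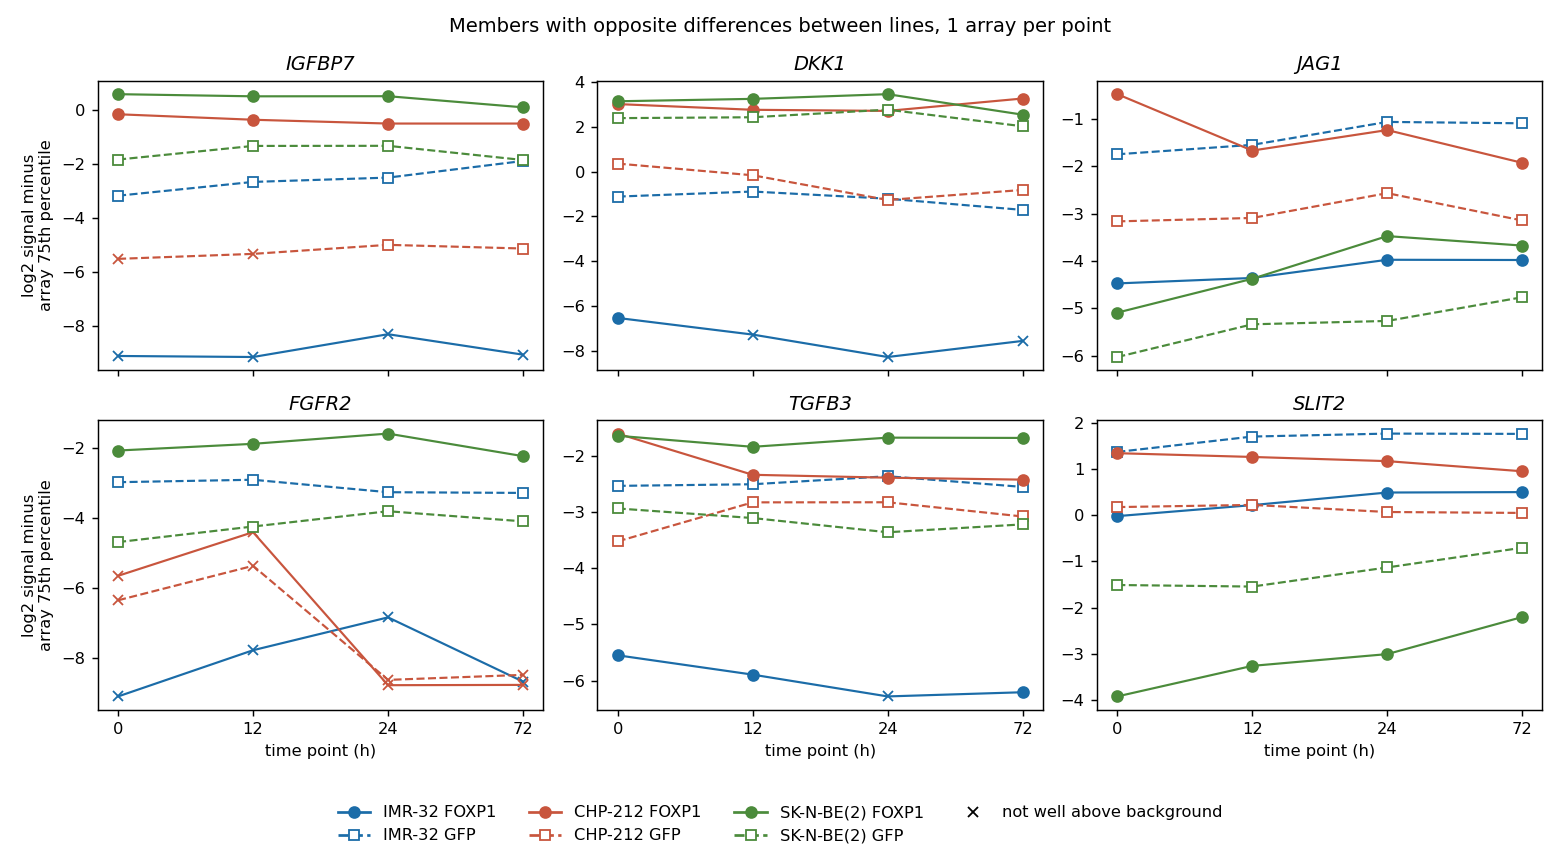
Levels (log2 signal minus the array's 75th percentile, y axis) of 6 genes at 0, 12, 24 and 72 h (x axis), 1 array per point, with FOXP1 arrays as filled circles and solid lines, GFP arrays as open squares and dashed lines, and crosses for arrays not well above background. In IMR-32 the GFP line lies above the FOXP1 line for all 6 genes; in CHP-212 the order is turned for IGFBP7, DKK1, JAG1, TGFB3 and SLIT2, and in SK-N-BE(2) for IGFBP7, DKK1, JAG1, FGFR2 and TGFB3.

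IGFBP3, the main carrier of insulin-like growth factors in serum, was in CHP-212 at 4.28, 3.70, 3.31 and 3.45 with GFP and 5.81, 5.54, 5.17 and 5.54 with FOXP1, a difference of 1.83 ± 0.24 (limma adjusted p = 0.0039). In SK-N-BE(2) the difference of 1.69 ± 0.50 was not called (adjusted p = 0.31) although the groups did not overlap. In IMR-32 it was read on 3 GFP arrays and no FOXP1 array. IGFBP5 (a measured 2.45, with 1 of 4 GFP arrays above background), IGFBP6 and IGFALS (1.38), which encodes the acid-labile subunit that stabilises the serum complex, were higher in the IMR-32 FOXP1 culture, the line that listed them. IGF1R, the signalling receptor, was at -4.42, -4.36, -4.21 and -3.76 with GFP and -6.06, -5.79, -5.38 and -5.52 with FOXP1 in IMR-32, and its differences of -0.74 in SK-N-BE(2) and -0.63 in CHP-212 were not called, with no overlap in any line. IGF2R, which clears IGF2, was higher in the CHP-212 FOXP1 culture by 1.25.

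JAG1, a Notch ligand, was lower with FOXP1 in IMR-32 and higher in CHP-212. The IMR-32 levels were -1.75, -1.55, -1.07 and -1.10 with GFP and -4.47, -4.36, -3.97 and -3.98 with FOXP1. Those in CHP-212 were -3.17, -3.09, -2.57 and -3.15 with GFP and -0.48, -1.67, -1.24 and -1.93 with FOXP1. Neither pair overlapped, and the differences were -2.83 ± 0.21 (limma adjusted p = 7.9e-06) and 1.66 ± 0.31 (adjusted p = 0.02). The CHP-212 call was lost when any of 4 of the 8 arrays was left out. In SK-N-BE(2) JAG1 differed by 1.19 ± 0.39 with overlapping groups. NRG1, a ligand of ERBB receptors, was lower in the CHP-212 FOXP1 culture by 1.22, in the line that listed it.

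Among the guidance genes, SEMA3A, a secreted repellent of growing axons, was at -3.04, -2.74, -2.64 and -2.91 on the IMR-32 GFP arrays and not well above background with FOXP1, at least 14.4-fold higher with GFP. In CHP-212 the difference was -1.95 ± 0.58 and not called (limma adjusted p = 0.11), although the groups did not overlap. SEMA3C and SEMA3B were higher in the IMR-32 FOXP1 culture, SEMA3C at least 1.3-fold and SEMA3B by 1.68. The other 4 semaphorins were not called in any line.

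NRP2, a co-receptor for class 3 semaphorins, was higher with FOXP1 in IMR-32 and CHP-212. Its levels were -0.41, -0.56, -0.40 and -0.31 with GFP against 0.94, 1.60, 2.00 and 2.02 with FOXP1 in IMR-32. In CHP-212 they were -4.89, -4.97, -4.98 and -5.47 with GFP, where the 0 and 12 h arrays were not well above background, against -3.26, -3.09, -3.58 and -3.52. The groups did not overlap, and the differences were 2.06 ± 0.24 (limma adjusted p = 0.00017) and 1.71 ± 0.19 (adjusted p = 0.0015). In SK-N-BE(2) the difference was -0.32 with overlapping groups. The plexin receptors split in IMR-32: PLXND1 was lower by 1.77 (adjusted p = 0.00086), PLXNB2 was lower at the 2-fold mark, and PLXNA4A was higher by a measured 3.31, with 1 of 4 GFP arrays above background. The PLXND1 levels were -4.12, -3.93, -4.20 and -3.61 with GFP and -6.33, -5.14, -5.50 and -5.98 with FOXP1, without overlap.

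The Eph receptors, tyrosine kinases that read membrane-bound ephrins on neighbouring cells, formed a family of 11 genes in the set, 1 of them an ephrin. In IMR-32 all 9 that were tested were called, 3 higher and 6 lower, beside 12.2% of all probes; all 9 were listed from this contrast, so the count is a description. Of those listed for another line, EPHA7 was higher with FOXP1, at -0.99, -0.86, -1.04 and -1.34 with GFP and 0.44, 0.24, 0.62 and 0.39 with FOXP1 (1.48 ± 0.16, limma adjusted p = 0.00012). EPHA8 was at -3.82, -3.65, -3.34 and -2.65 with GFP and -7.29, -6.58, -7.02 and -5.85 with FOXP1. EPHA5 was higher by 2.49, with 1 GFP array above background that reached into the FOXP1 range. EPHA8 was lower by a measured 3.32 ± 0.34 (adjusted p = 8.2e-05), with 2 of the 4 FOXP1 arrays above background, so the size depends on the background. After normexp the EPHA8 difference was -0.82 without a call (limma adjusted p = 0.67). EFNA1, the ephrin, was higher by 1.96 in IMR-32 and EPHA10 lower by 1.85 (-0.48 after normexp), both in the line that listed them.

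EPHB3 was lower with FOXP1 in 2 lines, by 2.11 ± 0.21 (limma adjusted p = 5.5e-05) in IMR-32 and by 1.24 ± 0.28 (adjusted p = 0.041) in CHP-212. The IMR-32 levels were -0.91, -0.85, -1.25 and -0.78 with GFP and -3.59, -2.75, -2.96 and -2.93 with FOXP1. The CHP-212 levels were -1.70, -1.19, -0.61 and -1.35 with GFP and -2.54, -2.48, -1.92 and -2.88 with FOXP1. The groups did not overlap in either line, but the CHP-212 call was lost when any of 6 of the 8 arrays was left out and under quantile normalization. In SK-N-BE(2) it lay the other way, 0.89 ± 0.21, without a call (adjusted p = 0.14). EPHA3 was a CHP-212 gene, at -2.48, -1.99, -2.26 and -2.07 with GFP and well above background on only 1 of the FOXP1 arrays, a difference of -4.09 in the line that listed it.

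**Figure D4:**
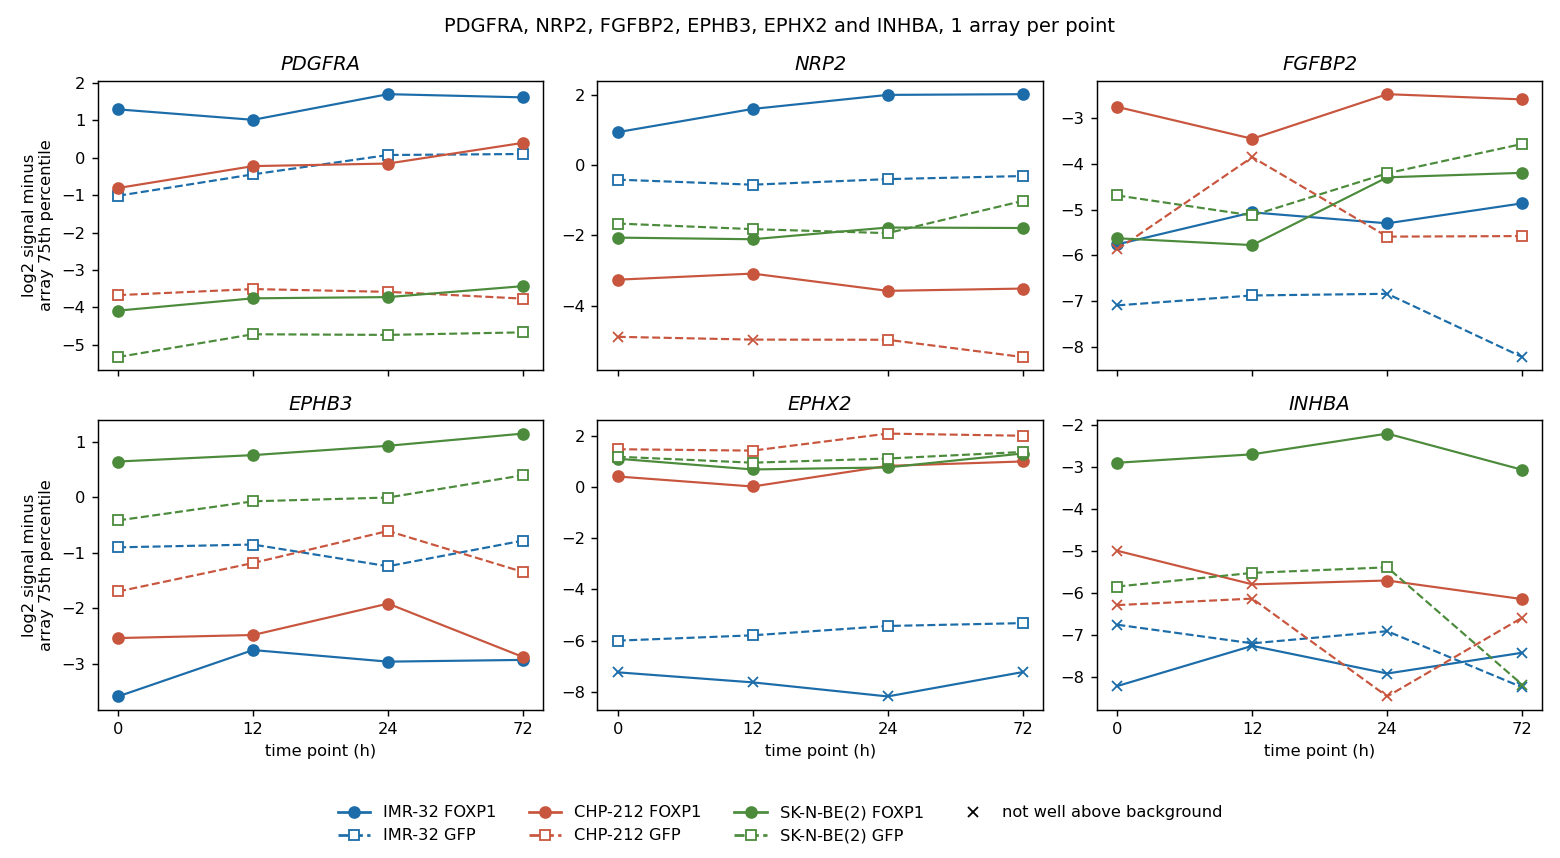
Levels (log2 signal minus the array's 75th percentile, y axis) of PDGFRA, NRP2, FGFBP2, EPHB3, EPHX2 and INHBA by time point in h (x axis), 1 array per point, with FOXP1 arrays as filled circles and solid lines, GFP arrays as open squares and dashed lines, and crosses for arrays not well above background. PDGFRA, NRP2 and FGFBP2 lie higher with FOXP1 and EPHB3 and EPHX2 lower in both IMR-32 and CHP-212; INHBA is separated in SK-N-BE(2), with its 72 h GFP array at -8.19.

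SLIT2, the secreted ligand of ROBO receptors, was lower with FOXP1 in IMR-32 and higher in CHP-212. Levels were 1.37, 1.71, 1.77 and 1.76 with GFP and -0.02, 0.22, 0.49 and 0.50 with FOXP1 in IMR-32. In CHP-212 they were 0.18, 0.22, 0.07 and 0.05 with GFP and 1.35, 1.26, 1.17 and 0.95 with FOXP1. The groups did not overlap, and the differences were -1.35 ± 0.18 (limma adjusted p = 0.00037) and 1.05 ± 0.15 (adjusted p = 0.0055), the latter at the 2-fold mark. In SK-N-BE(2) SLIT2 was lower on the arrays labelled FOXP1 by 1.88 ± 0.36, without overlap and without a call (adjusted p = 0.064). It was called there with normexp and when the arrays were paired by time point.

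The netrin-G and SLITRK genes encode neuronal membrane proteins that organise synapses and neurites. In IMR-32 NTNG1 was at -4.01, -4.18, -3.59 and -3.58 with GFP and 0.13, -0.57, -0.18 and -0.20 with FOXP1, a difference of 3.63 ± 0.21 (limma adjusted p = 1.2e-06) that also held with normexp. NTNG2 was higher by 2.61, SLITRK1 by 3.46 and SLITRK5 at least 34.5-fold, all listed for IMR-32 alone. SLITRK4 was lower by 2.25, and UNC5D, a netrin receptor, was read on the GFP arrays alone, at least 8.94-fold higher there. NTNG1 differed by -0.96 in SK-N-BE(2) and -0.38 in CHP-212, neither called.

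Of the 9 genes that share only part of a name, FGFBP2, a secreted FGF-binding protein homologue, was higher with FOXP1 in IMR-32 by 2.00, where 1 GFP array was above background, and in CHP-212 (2.39 ± 0.43, limma adjusted p = 0.018), the latter call lost when any of 4 of the 8 arrays was left out. In CHP-212 FGFBP2 was at -5.87, -3.86, -5.59 and -5.58 with GFP, where the 0 and 12 h arrays were not well above background, and -2.77, -3.46, -2.49 and -2.60 with FOXP1. EPHX2 was lower in both lines. Its levels in CHP-212 were 1.47, 1.42, 2.08 and 2.00 with GFP and 0.41, 0.01, 0.82 and 0.99 with FOXP1. In IMR-32 it was at least 2.07-fold higher with GFP, where no FOXP1 array was well above background, but after normexp the difference turned to 0.23. In CHP-212 it was lower by 1.18 ± 0.26 (adjusted p = 0.039), a call lost when any of 7 of the 8 arrays was left out. NRGN (neurogranin) was lower by 1.85 and PDGFRL higher by 2.60 in IMR-32, both listed for that line, and the NRGN value shrank to -0.42 after normexp.

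Among genes called in more than 1 line, IMR-32 and CHP-212 shared 10, of which 5 went the same way (PDGFRA, NRP2, FGFBP2, EPHB3 and EPHX2) and 5 opposite ways (IGFBP7, DKK1, JAG1, FGFR3 and SLIT2), beside 0.585% and 0.413% of 31452 probes tested in both. IMR-32 and SK-N-BE(2) shared 3, all opposite (IGFBP7, FGFR2 and TGFB3), beside 0.197% of 32425 probes, and CHP-212 and SK-N-BE(2) shared 1, IGFBP7, the same way, beside 0.0602% of 31554. The FOXP1 probe did not separate the SK-N-BE(2) groups. With the sign in that line turned for every probe, the 3 would go the same way, beside the same 0.197%. IGFBP7 would then be opposite in the last pair, beside the same 0.0602%. Turning the sign is arithmetic on the same values. The FOXP1 probe, with overlapping groups, bears out neither direction, and the labels were not tested. After normexp 1 of the 10 was still called in both lines, PDGFRA, and none of the 3, while IGFBP7 was still called in CHP-212 and SK-N-BE(2). SLIT2, lower in both IMR-32 and SK-N-BE(2), was called in both with normexp. It was also called in SK-N-BE(2) when the arrays were paired by time point. In all, 12 of the 97 genes were tested in no line; of the 85 tested in at least 1, 58 were called in 1 line, 11 in 2, 1 in 3 and 15 in none, beside 12.5%, 1.07%, 0.0552% and 86.4% of the 36234 probes tested in at least 1. Since the genes were listed from these contrasts, the counts are a description. The difference between lines was not tested, since these contrasts chose the genes.

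Further genes of the same pathways, from lists chosen with earlier results known, were counted in the same way. Of 213 listed genes 79 had a named probe. Among those listed by the study for another line, 22 of 35 tested were called in IMR-32 (10 higher and 12 lower), beside 12.2% of all probes and 36% of other named genes listed for another line. In SK-N-BE(2) the count was 5 of 56 (3 higher and 2 lower), beside 0.711% and 2.91%. For CHP-212 it was 11 of 53 (8 higher and 3 lower), beside 3.02% and 10.7%. The BMP antagonist GREM1 was higher with FOXP1 in both IMR-32, at least 29.5-fold, and CHP-212, by 2.79 in log2 (limma adjusted p = 0.0011). LTBP1, which stores latent TGF-beta in the matrix, was lower in IMR-32 by 1.84 (adjusted p = 2.6e-05) and higher in CHP-212 by 3.22 (adjusted p = 0.0013). KREMEN2, a DKK receptor, was lower in both, by 2.32 (adjusted p = 0.00016) and 3.37 (adjusted p = 0.0003). On the SK-N-BE(2) arrays labelled FOXP1, IL17RD, a feedback inhibitor of FGF signalling, was higher by 2.47 (adjusted p = 0.0028) and RELN, the secreted protein reelin, lower by 2.70 (adjusted p = 0.0052). RELN was at least 111-fold higher with FOXP1 in IMR-32.

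The 3 lines differed from each other in many of these genes. The genes were not chosen by this comparison, but the listing used both the FOXP1 and the GFP arrays of each line. The counts with GFP arrays alone are given too, and they do not remove that choice. The shares beside the counts are over all probes, and those of other listed genes were not counted for lines. Each line's mean over both cultures was compared in 1 limma fit of all 24 arrays. The arrays of a line lay on slides of its own, so line and slide cannot be told apart. They are time points of its FOXP1 and GFP cultures, and the p-values measure the spread between those arrays only. IMR-32 and CHP-212 differed in 55 of 79 genes tested, 18 higher and 37 lower in IMR-32, beside 31.2% of 35312 probes (14.4% higher and 16.7% lower). IMR-32 and SK-N-BE(2) differed in 53 of 80 (17 higher and 36 lower in IMR-32), beside 24.8% of 35425 probes (11.3% higher and 13.6% lower), with the median over all probes at -0.21. With normexp that count was 34 (14 higher and 20 lower). CHP-212 and SK-N-BE(2) differed in 60 of 79 (34 higher and 26 lower in CHP-212), beside 31.2% of 35448 probes (15.5% higher and 15.7% lower). CHP-212 lay above both other lines in 26 genes, SK-N-BE(2) in 18 and IMR-32 in 8. Of all probes tested in both contrasts of a line, the shares were 10.5%, 5.53% and 5.2%. Without the CHP-212 slide of 0 and 12 h the counts with CHP-212 were 59 and 58. With GFP arrays alone, the controls of that listing, the 3 counts were 56, 48 and 58, beside 31.3%, 25.2% and 30.6% of probes.

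The genes that set CHP-212 apart were WNT5A, TGFB2, SEMA3C and IGFBP6. WNT5A ranged from -0.77 to 2.13 there (median 0.57) and from -9.20 to -5.78 in IMR-32, the nearer line, a measured difference of 8.07 whose size depends on the background, since 3 of the 8 IMR-32 arrays read it well above background. It was at least 122-fold higher in CHP-212 than in SK-N-BE(2). TGFB2 ranged from 0.01 to 2.41 in CHP-212 (median 1.15) and from -6.06 to -5.04 in SK-N-BE(2), a difference of 6.78 ± 0.20 (limma adjusted p = 1.1e-17, n = 8 arrays per line, with 7 of those of SK-N-BE(2) above background). SEMA3C was 6.76 above SK-N-BE(2), where 4 of 8 arrays read it, and IGFBP6 5.44 ± 0.21 above IMR-32 (adjusted p = 7.8e-16). No array of CHP-212 overlapped one of another line for these 4 genes, whichever transgene it carried.

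SK-N-BE(2) was set apart by FGF13, IGF2AS, SEMA3E and PLXNA4A. FGF13 ranged from -0.19 to 1.56 (median 0.77) against -7.24 to -5.45 in CHP-212, a measured difference of 7.02, with 2 of the 8 CHP-212 arrays well above background. The probe named for IGF2AS, a transcript of the strand opposite IGF2, ranged from 3.24 to 3.96 in SK-N-BE(2) and from -3.13 to -0.79 in IMR-32, a difference of 5.61 ± 0.14 (limma adjusted p = 1.5e-18). SEMA3E was 4.82 above CHP-212, where 1 of 8 arrays read it, so the sizes for FGF13 and SEMA3E depend on the background. PLXNA4A was 3.34 ± 0.36 above IMR-32 (adjusted p = 7.1e-08), where 5 of 8 arrays read it.

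The genes furthest above both other lines in IMR-32, by measured difference, were DLL1, NTNG1, FGF10 and PDGFRA, of which the last 3 also differed between its 2 cultures. DLL1, a Notch ligand, ranged from -0.28 to 0.98 (median 0.29) in IMR-32 and from -3.52 to -0.78 in SK-N-BE(2), a difference of 2.73 ± 0.22 (limma adjusted p = 5.2e-10), and lay lower still in CHP-212. NTNG1 was 2.71 ± 0.21 above SK-N-BE(2) (adjusted p = 5e-10), but with the GFP arrays alone this was not called. PDGFRA was 2.46 ± 0.18 above CHP-212 (adjusted p = 7.1e-11), and the IMR-32 GFP arrays overlapped the CHP-212 FOXP1 arrays. FGF10, read mainly on the IMR-32 GFP arrays, was at least 1.36-fold higher than in CHP-212 and at least 2.84-fold higher than in SK-N-BE(2). No array of either line read it, so its place among the 4 depends on the background; NRP2, the next in order, was 2.38 above SK-N-BE(2).

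**Figure D5:**
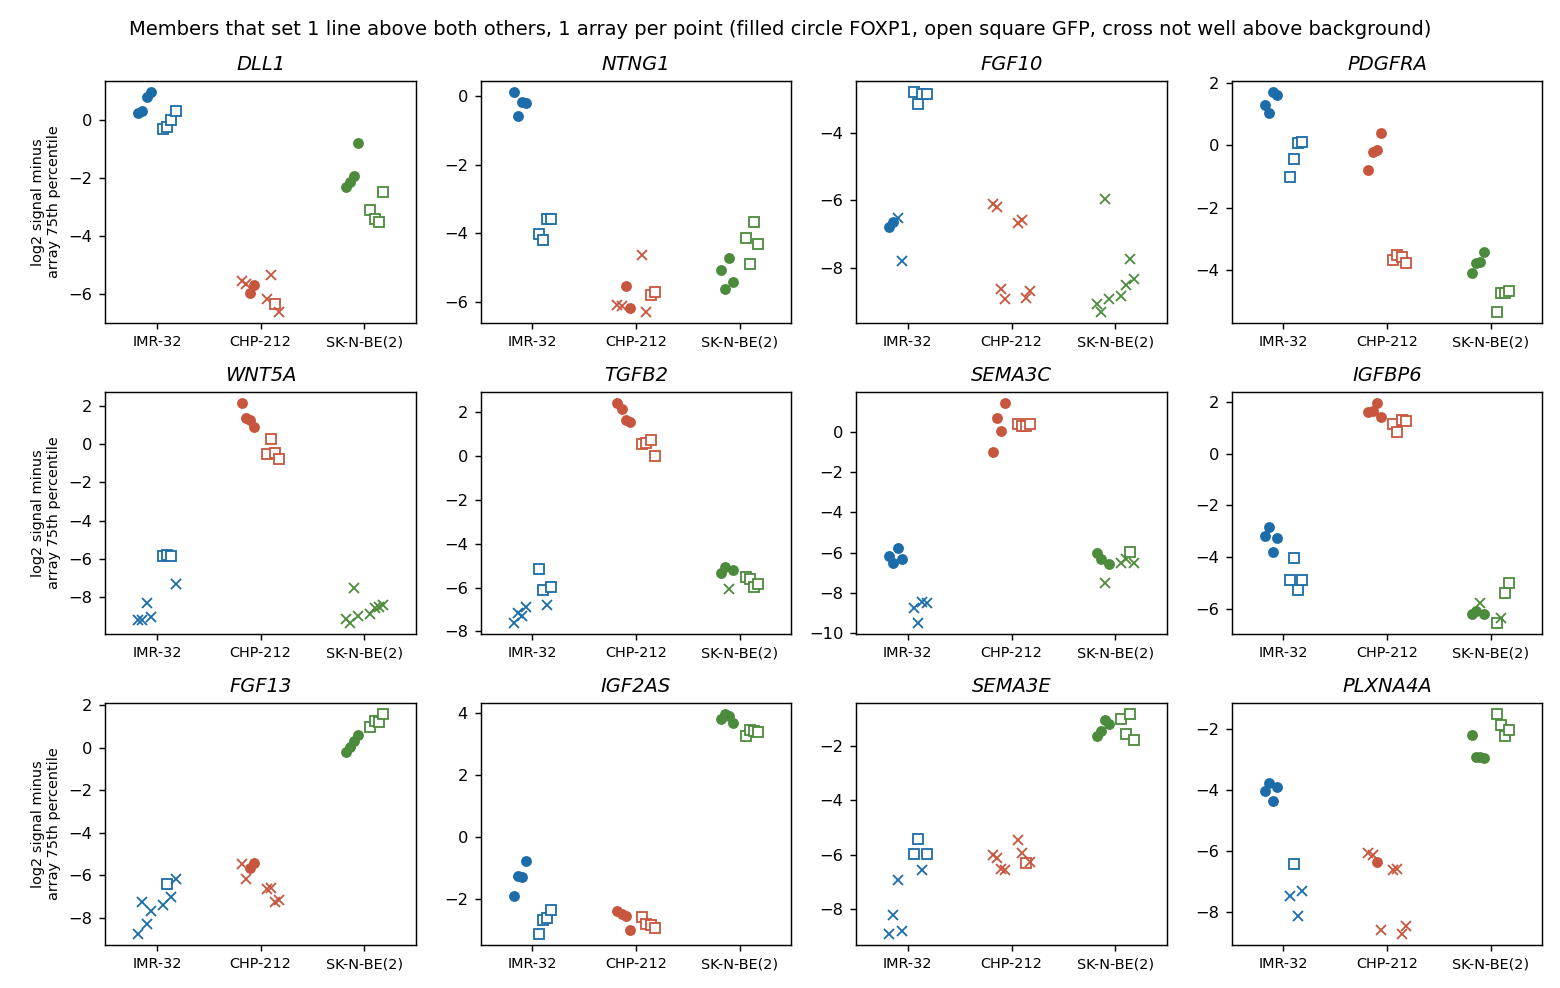
Levels (log2 signal minus the array's 75th percentile, y axis) of the 4 genes with the largest measured differences of each line above both others, by line (x axis), 1 array per point, with FOXP1 arrays as filled circles, GFP arrays as open squares and crosses for arrays not well above background. The top row leads in IMR-32, the middle row in CHP-212 and the bottom row in SK-N-BE(2); in the middle row no array of the leading line falls among those of another.

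No gene of the set passed the test between time points. Between 0 and 12 h, compared within the 6 cultures, none of 65 genes tested passed limma at an adjusted p below 0.05, beside 2.61% of 33015 probes that passed (0.0727% higher and 2.54% lower). An unadjusted p below 0.05 was found for 8 of the 65, beside 13.2% of all probes. SMAD7 came nearest, lower at 12 h in 6 of 6 cultures by 0.54 ± 0.12 (adjusted p = 0.058). It passed after normexp, as did NTNG1, and where only probes above background on all 12 arrays were kept. FGFR2 was higher by 0.71 ± 0.20 and NTNG1 lower by 0.65 ± 0.21, neither passing, with 3 and 4 of the 6 cultures above background at both times. Between 24 and 72 h none of 71 passed limma and 0% of 34037 probes did, while 10 of the 71 had an unadjusted p below 0.05, beside 9.2% of all probes. The lowest p belonged to BMP7, lower at 72 h in 6 of 6 cultures by 0.65 ± 0.13, FGFR1OP, lower in 6 of 6 by 0.51 ± 0.13, and EPHA8, higher by 0.82 ± 0.20 with 4 of 6 cultures above background at both times (adjusted p = 0.54 for each). After normexp the EPHA8 difference turned to -0.093. The step from 12 to 24 h crosses slides and was not tested.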

How the data were processed

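Per the labels, RNA from each culture and time point was hybridised to 1 single-colour Agilent array. The deposited scanner files hold the authors' processed intensity of each probe, made with Feature Extraction 10.7.3.1. The deposited value table holds quantile-normalized intensities of the same arrays, which were put on the log2 scale here and used as an alternative. The submitters' processing notes name limma without a version. Here the log2 intensity minus log2 of the array's 75th percentile was used, without control spots and outlier spots, for 43291 probes. Differences were tested with limma 3.58.1 in R 4.3.3, within each line for FOXP1 minus GFP, over 24 arrays for lines, and with the culture as a block for time steps. Line contrasts needed a signal well above background on 4 of 8 arrays of 1 of the lines and time steps on 6 of 12 arrays, the latter called with no fold limit. The number of arrays limits the precision. The members and lists were chosen with earlier results of these data known. Genes named were, per line, the 6 highest and 6 lowest called differences among genes above background on all 8 arrays, every gene called in 2 or more lines or from another line's listing, the 4 leaders of each line over both others, and the 3 lowest p of each time step. Further members illustrate their role and were picked with their values seen. "At least" folds set the bright group against the lowest signal read well above background. A normexp correction (offset 50), quantile normalization, other filters, blocks, the methods' t-test and omission of single arrays were tried. The code was tested on simulated data. Gene positions and promoters are from RefSeq, GRCh38.p14, where 96 of the 97 symbols matched. FOXP1 and GFP arrays of the same time point were paired by the labels, and their deviations from the group means correlated at 0.053 to 0.67. Some genes of the lists are not reported here.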

Additional observations from a re-analysis of the deposited data

Results flagged for a closer look

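Of 96 groups of 4 arrays examined for an array far from the others, 7 had one, where chance gives about 1 in 20. In IMR-32, IGFBP7 was at -8.29 on the 24 h FOXP1 array against -9.13 to -9.04 on the others, none of them well above background, and SLIT2 was at 1.37 on the 0 h GFP array against 1.71 to 1.77. Among the CHP-212 GFP arrays, JAG1 was at -2.57 at 24 h against -3.17 to -3.09, FGFBP2 at -3.86 at 12 h against -5.87 to -5.58, and NRP2 at -5.47 at 72 h against -4.98 to -4.89. In SK-N-BE(2), IGFBP7 was at 0.089 on the 72 h array labelled FOXP1 against 0.49 to 0.57, and INHBA at -8.19 on the 72 h GFP array against -5.85 to -5.40.

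Among the genes called in both lines compared, 7 were those for which every FOXP1 and GFP pair moved one way in IMR-32 and the opposite way in another line, and the difference between lines was not tested. The IMR-32 difference minus the CHP-212 difference was -9.57 for DKK1, -2.63 for FGFR3, -11.18 for IGFBP7, -4.49 for JAG1 and -2.41 for SLIT2. The IMR-32 difference minus the SK-N-BE(2) difference was -7.26 for FGFR2, -8.34 for IGFBP7 and -4.95 for TGFB3. The values for IGFBP7 and FGFR2 use IMR-32 FOXP1 arrays that were not well above background and depend on that background, as do 3 of the 4 such arrays for DKK1 and the 24 h array for TGFB3.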

How the results depend on the processing

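Counts are of genes called, and where a count moved the cause was not tested. With normexp the IMR-32 count was 17, or 6 of those listed for another line, and with probes above background on all 8 arrays it was 30 and 10, since fewer genes were tested. In CHP-212 the count was 11 on the slide of 24 and 72 h alone, an alternative chosen after seeing the data, and for genes listed for another line it was 7 there, 8 without 0 h and 8 with the methods' t-test after Benjamini-Hochberg. In SK-N-BE(2) the counts were 7 with normexp (7 listed for another line), 9 with slide as a block (9), 14 with the methods' t-test unadjusted (13), 9 with all 24 arrays in 1 fit (8) and 0 without 0 h (0). With the time point as a replicate block, pairing FOXP1 and GFP arrays, SK-N-BE(2) gave 13 and 12, and no other count of FOXP1 against GFP moved by over 1.5 times. IMR-32 against SK-N-BE(2) gave 34 with normexp. The step from 0 to 12 h gave 2 with normexp and 1 with probes above background on all 12 arrays. Leaving out 1 array gave 53 to 56 and 20 to 21 in IMR-32, 17 to 24 and 8 to 14 in CHP-212 (8 without the 72 h GFP array), 3 to 4 and 3 to 4 in SK-N-BE(2), 54 to 57, 50 to 55 and 58 to 61 between lines, and, for a left-out culture, 0 to 1 (1 without the CHP-212 FOXP1 culture) and 0 to 0 in the time steps. Of 1278 alternatives over 66 values of single genes, 1178 kept direction and side of the threshold, 95 lost the call, 3 gained it and 2 reversed, EPHX2 in IMR-32 (0.23) and EPHA8 from 24 to 72 h (-0.093), both with normexp. Dim probes on the CHP-212 slide of 0 and 12 h limit that line.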
